A study of Solanum tuberosum with 22 samples.

Results

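This account covers 4 potato (Solanum tuberosum) genes of oxylipin synthesis, the lipoxygenases POTLX-3 and LOX-H1 and the CYP74 enzymes HPL and CYP74D2. Their spots were found on the array by gene symbol or synonym, where POTLX-3 is also listed as LOX1.5 and LOX-H1 as LOX2.1 or LOC102596122. They made up 16 of 32448 spots, of which 2 stood for POTLX-3, 8 for LOX-H1, 4 for HPL and 2 for CYP74D2. Each clone was spotted in duplicate, so POTLX-3 and CYP74D2 rest on 1 clone each, HPL on 2 clones and LOX-H1 on 4. The clones are lettered A to D here, and their spots are called copy 1 and copy 2. Copies of a clone, and clones of a gene, share a target and an array and are not replicates of a condition.

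RNA was compared with a pooled RNA on spotted arrays read in 2 colours, over 10 arrays of microtubers formed in tissue culture and 12 arrays of organs from growth chamber plants. Microtubers were taken 2, 5, 10, 20 and 30 days after tubers were seen to form, with 2 microtuber populations as replicates at each time. Plant material was sorted into stolons without a tuber and tubers of 1-5, 6-10, 11-15, 16-25 and 26-35 mm, with 2 sets of plants as replicates of each class, 10 plants to a set, raised one set after the other in 1 growth chamber. The labels name no treatment or mutant, and each system had a pool of its own stages as its common reference. The labels give a hormone-free, sucrose-containing tuber-induction medium in the dark as the growth protocol, and repeat that text for the plant samples. Stolons alone were labelled from amplified RNA, so that in each comparison with them the tissue and the amplification cannot be told apart. The cultivar is not given in the sources used here.

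Lipoxygenases add oxygen to polyunsaturated fatty acids such as linoleic and linolenic acid, and the hydroperoxides they form feed several branches of oxylipin synthesis. POTLX-3 belongs to the class of plant lipoxygenases that also holds the tuber enzymes, and LOX-H1 is a plastid lipoxygenase known from potato leaves for supplying hydroperoxides to aldehyde formation. Enzymes of the CYP74 family of cytochromes P450 use these hydroperoxides: HPL, hydroperoxide lyase, cleaves them to short-chain aldehydes, and CYP74D2 is a divinyl ether synthase, which makes divinyl ether fatty acids known from potato defence. Transcripts in whole organs were measured, so that fewer cells of a type and less RNA per cell cannot be told apart.

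Values are read as log2 ratios of a sample to its pool, so 0 is the pool's level. An in vitro array held a value for 52.0% to 65.7% of its spots, and an in vivo array for 33.1% to 48.9%. In vitro replicates of a time correlated between 0.605 and 0.787 over spots. In vivo replicates, in which the sample carried opposite dyes, correlated between -0.63 and -0.361 as deposited, and the values of replicate 2 were multiplied by -1. This direction is unsettled. The dye labels point the other way: the sample is Cy5 on every in vitro array and in replicate 2 of the in vivo arrays and Cy3 in replicate 1, so with 1 dye order throughout replicate 1 would be the one to turn. The basis for turning replicate 2 is that an equal pool of 6 classes bounds a sample's log2 ratio at 2.58 from above, while 413 values lay above that bound and 2070 as far below 0 in replicate 1 as used, and 46 and 1781 in replicate 2. Turning replicate 1 instead would turn the sign of every in vivo value and comparison given here, so that higher in tubers would read as lower. The in vitro values were read as sample over pool, which the sources used here do not state either. With 1 dye order throughout and replicate 2 turned, the in vitro ratios would be pool over sample. Every in vitro change given here would then turn its sign. For the tissue check, 10 of 17 tested spots of tuber storage organ markers were higher in tubers than in stolons and 0 were lower. All 10 were spots of protease inhibitors, 5 of KTI-C, 3 of PIN-II and 2 of API, and 0 of 4 spots of the starch synthase GBSS passed. Of 13 spots of green shoot markers 0 were higher and 4 were lower. Over all spots tested 22.3% were called in this comparison. The patatin symbols of that marker list matched no spot. In vitro KTI-C and API had too few values to be tested, and of the 9 marker spots tested late minus early 0 were higher and 7 were lower, 6 of PIN-II and 1 of the starch synthase GBSS (-0.49), with a median of -2.06. Late minus early 48.5% of all spots tested were called.

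All 4 genes were measured on every in vitro array, with 146 spot values in all. On the plant CYP74D2 gave 23 of 24 possible values and HPL 33 of 48. POTLX-3 gave 11 of 24, from 9 of 12 arrays. No LOX-H1 spot had a value on any in vivo array, 0 of 96. How spots came to have no value is not given in the sources used here, so these gaps are read neither as low nor as absent transcript. A spot was tested where at least 80% of a system's arrays held a value and every group held 1. This kept 15 of 16 spots in vitro (all but LOX-H1 clone D copy 2) and 3 of 16 in vivo (both copies of CYP74D2 and HPL clone A copy 2).

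The first comparison asked how the transcripts differed between late microtubers, of 20 and 30 days, and early ones, of 2 and 5 days. With ratios read as sample over pool, POTLX-3 was the lipoxygenase that rose, CYP74D2 rose as well and HPL fell. The clones of LOX-H1 moved in both directions. Of the 15 spots tested, 12 differed at an adjusted p under 0.05 in limma, 6 higher and 6 lower. Over all 19600 spots tested the share was 48.5%, so a change with culture age was common on these arrays.

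POTLX-3 climbed through the whole culture period. As the mean of its 2 spots it stood at -0.89 and -0.76 in replicates 1 and 2 at 2 days, -0.35 and -0.32 at 5 days, 0.09 and 0.08 at 10 days, 0.88 and 0.63 at 20 days, and 0.96 and 0.75 at 30 days. The replicates of neighbouring times did not overlap up to 20 days, and those of 20 and 30 days did. Late minus early, copy 1 changed by 1.32 ± 0.12 (SE of the limma fit, adjusted p = 1.57e-05) and copy 2 by 1.45 ± 0.10 (adjusted p = 3.57e-06), which are 2.49-fold and 2.73-fold. Within replicate 1 the 2 copies changed by 1.49 and 1.59, and within replicate 2 by 1.15 and 1.31. All late values of both copies lay above all early ones.

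The step in the first days was small for POTLX-3. At 5 against 2 days copy 2 changed by 0.65 (adjusted p = 0.0289) and copy 1 by 0.32 (adjusted p = 0.283). Leaving out either 2-day or either 5-day array ended the call of copy 2, with changes of 0.55 to 0.75. At 10 against 2 days both copies passed, with 0.73 and 1.08, although copy 1 no longer passed without replicate 1 of 2 days (0.58) or of 10 days (0.65). At 30 against 2 days the copies differed by 1.56 and 1.80.

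CYP74D2 had the steepest early step of the 4 genes. Its spot mean was -1.71 and -1.47 at 2 days, 0.52 and 0.70 at 5 days, 0.51 and 0.67 at 10 days, 0.28 and 0.41 at 20 days, and -0.0065 and 0.26 at 30 days. The 2-day arrays lay below every other array of the system. At 5 against 2 days the change was 2.27 ± 0.16 for copy 1 and 2.14 ± 0.15 for copy 2 (limma adjusted p = 5.05e-05 for each), 4.82-fold and 4.40-fold. In that comparison 4 of 15 member spots were called, 3 higher and 1 lower, against 5.49% of all spots tested.

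After 5 days CYP74D2 drifted down without returning to its 2-day level. At 30 against 5 days, a contrast added after the values were seen, it fell by 0.49 ± 0.16 on copy 1 (limma adjusted p = 0.0469) and by 0.48 ± 0.15 on copy 2 (adjusted p = 0.0432), with a decrease within each replicate. This small decline is fragile: copy 1 lost the call in 7 of 10 fits that each left out 1 array, with changes of -0.63 to -0.35, and copy 2 in 4 of 10 (both 5-day arrays, 30 days replicate 1 and 20 days replicate 2), with changes of -0.60 to -0.36. At 30 against 2 days the copies were still higher by 1.78 and 1.66 (adjusted p = 3.10e-05 and 3.60e-05). Because 2 days is one of the early times, late minus early gave 0.73 for each copy, which averages a step up and a later decline. After quantile normalization these values were 0.43 for each copy (adjusted p = 0.00506 and 0.00455).

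HPL went the other way from POTLX-3. The mean of its spots was -0.001 and 0.14 at 2 days, 0.49 and 0.63 at 5 days, 0.21 and 0.51 at 10 days, -0.58 and -0.26 at 20 days, and -0.80 and -0.14 at 30 days. In each replicate 5 days was the highest time, and all 4 late arrays lay below the pool and below all 4 early arrays as means. In replicate 2 the late means rest on 2 spots at 20 days and 3 at 30 days, against 4 in replicate 1. The 3 spots read -0.073 (clone A copy 1), -0.357 and 0.014 (clone B). Late minus early, the 4 HPL spots fell by 0.60 and 0.74 on clone A (adjusted p = 0.0143 and 3.30e-04 in limma) and by 0.94 and 1.04 on clone B (adjusted p = 0.00226 and 0.00558), a range of 1.51-fold to 2.05-fold. Within replicate 2 that change could be formed for clone B copy 1 only (-0.88). The early increase of HPL did not pass: at 5 against 2 days the 4 spots changed by 0.27 to 0.71, with adjusted p from 0.168 to 0.480. With the replicate as a block clone B copy 1 passed (adjusted p = 0.0158, in a fit that called 6.43% of all spots).

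**Figure D1:**
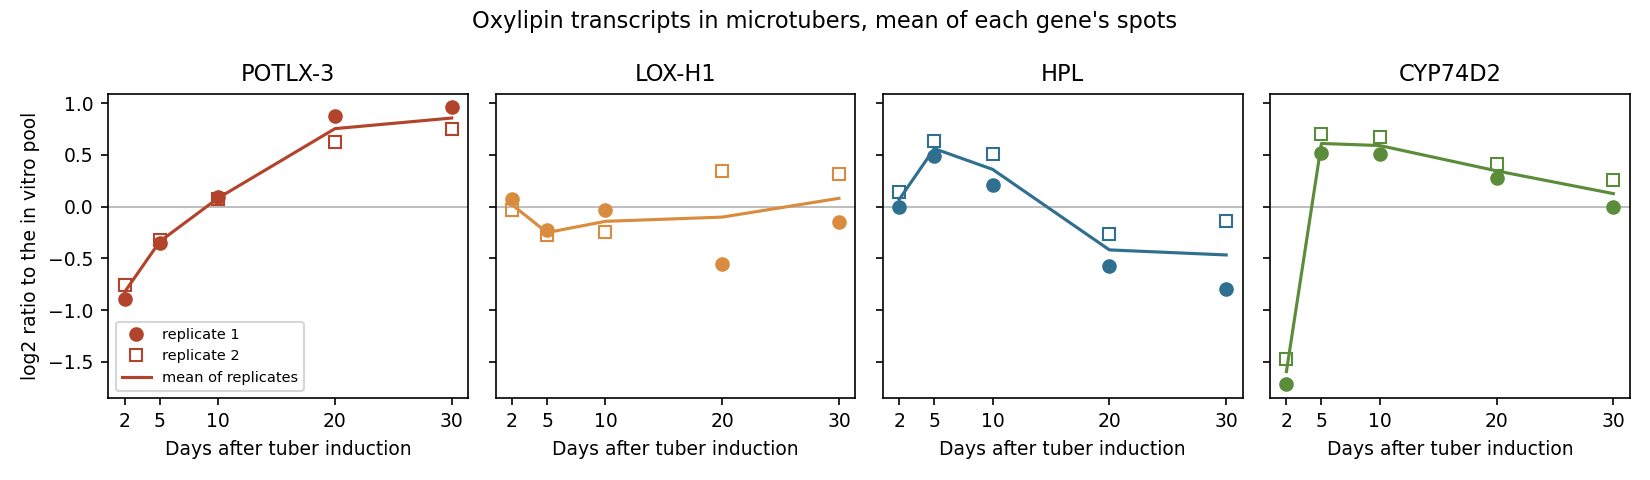
Log2 ratio to the in vitro pool (vertical axis) against sampling day (horizontal axis) for POTLX-3, LOX-H1, HPL and CYP74D2. The axis is headed days after tuber induction, and the days are those given above, after tubers were seen to form. Each point is the mean of a gene's spots on 1 array and each line the mean of 2 replicates. POTLX-3 climbs at every time, CYP74D2 steps up between 2 and 5 days and then declines, and HPL peaks at 5 days. The LOX-H1 mean stays near the pool while its replicates separate at 20 and 30 days. At those times it rests on 7 and 8 spots in replicate 1 and on 5 and 4 in replicate 2.

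After 5 days POTLX-3 and the CYP74 genes moved in opposite directions. At 30 against 5 days 8 of 15 member spots were called, against 26.2% of all spots tested. The 2 spots that were higher were those of POTLX-3, which changed by 1.24 ± 0.16 and 1.15 ± 0.14 (limma adjusted p = 6.55e-04 and 4.10e-04). The 6 that were lower were the 4 of HPL and the 2 of CYP74D2, and HPL changed by -0.73, -0.98, -1.41 and -1.23. Without replicate 1 or 2 of 5 days, or without replicate 1 of 30 days, HPL clone A copy 1 and clone B copy 2 no longer passed, with changes of -0.77 to -0.38 and of -1.29 to -0.78 in those fits. None of the 7 LOX-H1 spots passed at 30 against 5 days, with changes of -0.13 to 0.72.

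Between the other times and 2 days, member spots were called 5 of 15 at 10 days (25.8% of all spots), 9 of 15 at 20 days (41.9%) and 9 of 15 at 30 days (40.6%). Both spots of POTLX-3 and both of CYP74D2 were higher at each of these times. Among HPL spots clone A copy 2 was lower at 20 days, by 0.51 (adjusted p = 0.0113), and that call was lost without replicate 1 of 20 days (-0.47, adjusted p = 0.0553). At 30 days clone A copy 2 was lower by 0.66 and clone B copy 1 by 0.76, the second not without replicate 1 of 30 days (-0.48) or replicate 2 of 2 days (-0.53). The remaining calls belonged to LOX-H1, whose 4 clones are taken up next: clone D was lower at all 3 times, clone B was higher on both copies at 20 and 30 days, and clone A copy 2 was lower at 20 days. At 20 days clone A copy 2, clone B copy 1 and clone D copy 1 each had a value on 1 array, as HPL clone A copy 2 had at 30 days, and those tests take their spread from the other times.

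**Figure D2:**
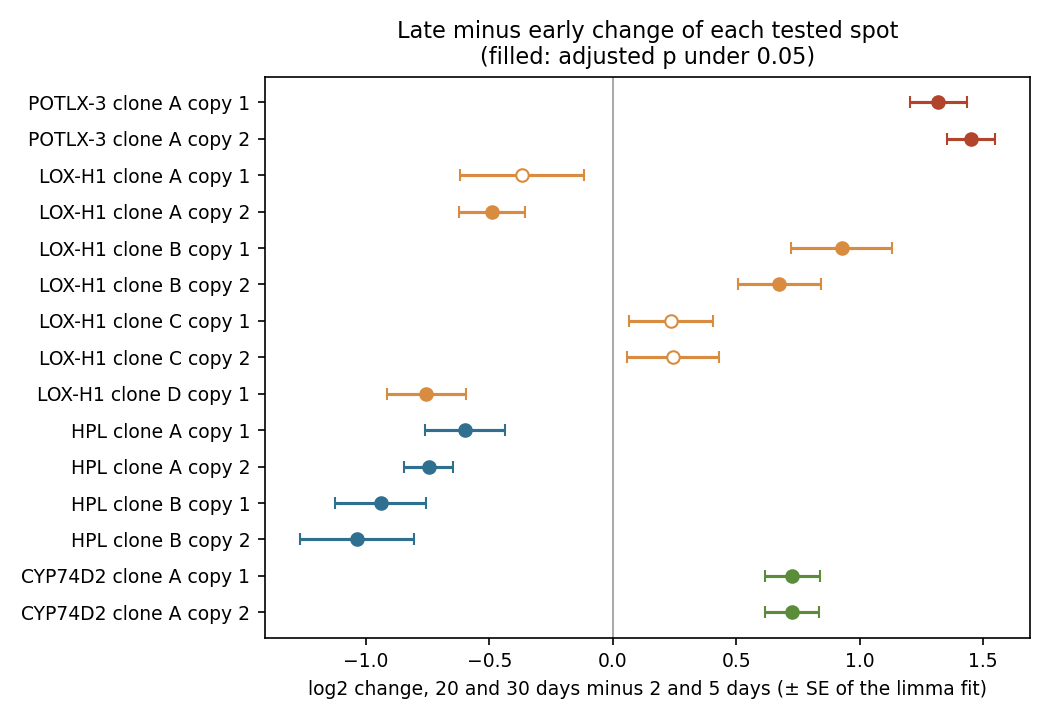
Log2 change between late (20 and 30 days) and early (2 and 5 days) microtubers for each tested spot, with bars for the standard error from limma and filled points where the adjusted p is under 0.05. Both POTLX-3 spots and both CYP74D2 spots lie above 0, the 4 HPL spots lie below 0, and LOX-H1 spots lie on both sides, from -0.75 to 0.93.

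The 4 clones listed as LOX-H1 did not follow 1 course. Clone A stood at 0.29 and 0.18 at 2 days, -0.14 and -0.25 at 5 days, -0.31 and -0.18 at 10 days, -0.81 and 0.12 at 20 days, and -0.30 at 30 days, where replicate 2 had no value. It was above the pool at 2 days and mostly below it afterwards. Its copies changed by -0.37 ± 0.25 (adjusted p = 0.261) and -0.49 ± 0.13 (adjusted p = 0.0179) late minus early, and after quantile normalization copy 2 no longer passed (-0.42, adjusted p = 0.0644). At 20 days the replicates of clone A lay 0.93 apart, but replicate 2 rests there on copy 1 alone. Copy 1 stood at -1.06 and 0.12 at that time. Copy 2 had no value in replicate 2 at 20 or 30 days, so its late values are those of replicate 1 only.

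Clone B climbed, mainly in replicate 2. It stood at -0.30 and -0.29 at 2 days, -0.12 and -0.34 at 5 days, 0.21 and 0.03 at 10 days, 0.20 and 0.80 at 20 days, and 0.04 and 0.81 at 30 days. All 4 late arrays lay above all 4 early ones. Late minus early its copies changed by 0.93 ± 0.20 (adjusted p = 0.00532) and 0.68 ± 0.17 (adjusted p = 0.00837), and copy 2 changed by 0.31 within replicate 1 and by 1.04 within replicate 2. At 30 against 2 days the copies changed by 0.76 and 0.68 (adjusted p = 0.0432 and 0.0450), calls that were lost in 7 of 9 and 7 of 10 fits without 1 array, with 0.34 and 0.33 as the lowest changes, when replicate 2 of 30 days was left out. At 20 against 2 days they changed by 1.14 and 0.76 and lost the call without either 2-day array (1.12 to 1.16 and 0.75 to 0.77), copy 2 also without replicate 2 of 20 days (0.46).

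Clone C moved little. Its arrays lay between -0.51 and 0.26, and its copies changed by 0.24 and 0.25 late minus early (adjusted p = 0.291 and 0.300). Clone D was highest at the first time. It stood at 0.62 and 0.99 at 2 days, -0.20 and -0.19 at 5 days, -0.30 and -0.74 at 10 days, -0.80 in the replicate measured at 20 days, and -0.28 and -0.09 at 30 days. The 2-day arrays of clone D lay above all its other arrays. Its tested copy fell by 0.75 ± 0.16 late minus early (adjusted p = 0.00443) and by 1.30 at 10 against 2 days (adjusted p = 0.00246). At 5 against 2 days it fell by 0.90 (adjusted p = 0.0396), a call lost without any single 2-day or 5-day array, with changes of -1.10 to -0.71. At 30 against 2 days it was lower by 0.90 (adjusted p = 0.00732), but not past the threshold without replicate 2 of 2 days (-0.71, adjusted p = 0.0503).

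**Figure D3:**
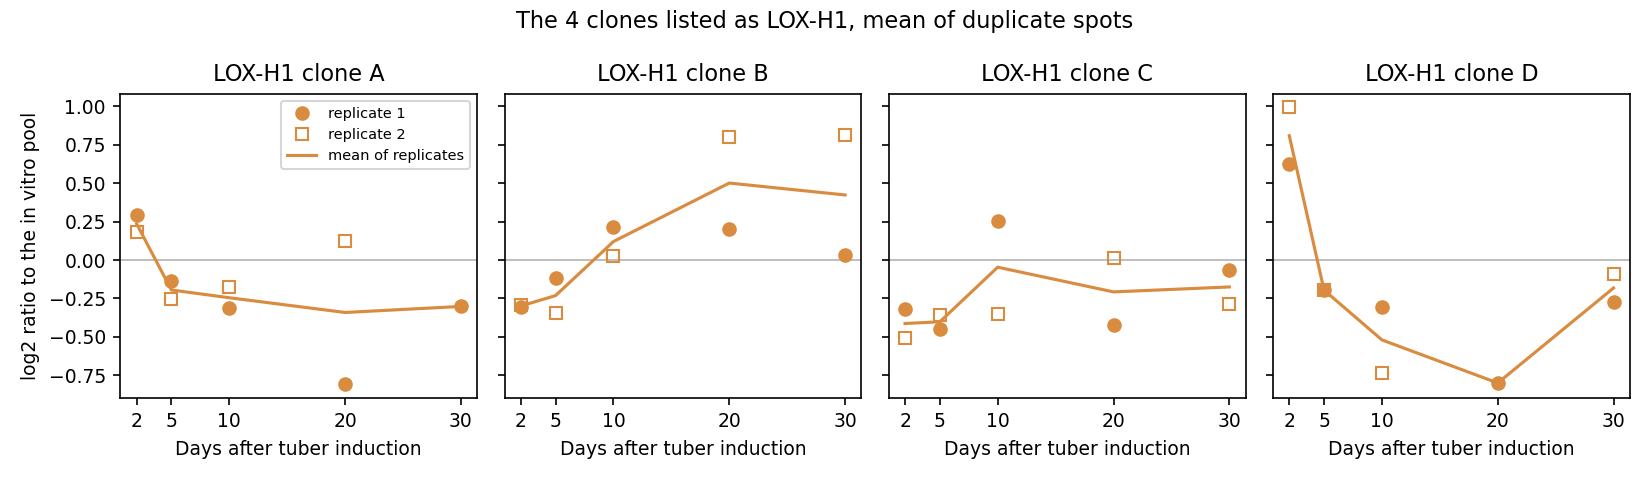
Log2 ratio to the in vitro pool (vertical axis) against sampling day (horizontal axis) for the 4 clones listed as LOX-H1. The axis is headed days after tuber induction, and the days are those after tubers were seen to form. Each point is the mean of a clone's duplicate spots on 1 array and each line the mean of the replicates measured. Clone D falls from 0.62 and 0.99 at 2 days to values below the pool, clone A falls less, clone B climbs and clone C stays between -0.51 and 0.26.

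The disagreement between clones was tested on their within-array differences, a test added after the values were seen, in the limma fit over all spots. Late minus early, clone A minus clone B changed by -0.88 ± 0.13 (adjusted p = 6.47e-04) and clone B minus clone D by 1.37 ± 0.17 (adjusted p = 2.31e-04). Clone C minus clone D changed by 0.90 ± 0.16 (adjusted p = 0.00189), and A minus C was -0.61 ± 0.20 (adjusted p = 0.0297). The differences A minus D, 0.27 ± 0.20 (adjusted p = 0.296), and B minus C, 0.51 ± 0.20 (adjusted p = 0.0594), did not pass. Copies of 1 LOX-H1 clone differed on an array by a median of 0.07 to 0.33. The mean over all LOX-H1 spots therefore averages unlike courses: it changed by 0.11 ± 0.18 late minus early (adjusted p = 0.622 among 408 genes, of which 67.9% were called). In replicate 2 this mean rests on 5 spots at 20 days and 4 at 30 days, both copies of clone B among them, against 7 and 8 in replicate 1. Whether the clones come from 1 gene or from near-identical copies cannot be read from the annotation used here. The 2 HPL clones differed by 0.30 ± 0.15 (A minus B, adjusted p = 0.122).

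Lipoxygenases and CYP74 enzymes were then set against each other on the same array, as the difference of 2 gene means. In all 12 such tests were made in the 2 systems, 6 of them in vitro, each an exact two-sided permutation test over arrays with Benjamini-Hochberg adjustment over the 12. The test treats the arrays of a group as exchangeable. It takes no account of differences between stages within a group or of the in vivo pairing by replicate. With 4 late and 4 early arrays the smallest possible p is 0.0286, and after adjustment none of the 12 passed 0.05. An adjusted p of 0.0571 was the lowest, so the size of each difference and the overlap of the groups are given.

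POTLX-3 minus HPL changed by 2.14 between late and early microtubers (exact permutation p = 0.0286, adjusted p = 0.0571), by 2.47 within replicate 1 and 1.81 within replicate 2, without overlap between the groups. HPL minus CYP74D2 changed by -1.48, also without overlap (exact permutation p = 0.0286, adjusted p = 0.0571). The same p belonged to POTLX-3 minus LOX-H1, which changed by 1.28. That change was 1.81 within replicate 1 and 0.74 within replicate 2, whose late LOX-H1 means rest on fewer spots. LOX-H1 minus HPL changed by 0.86 (exact permutation p = 0.0571, adjusted p = 0.098), and the groups overlapped. Against CYP74D2 the lipoxygenases overlapped between late and early arrays, with 0.66 for POTLX-3 (exact permutation p = 0.343) and -0.62 for LOX-H1 (exact permutation p = 0.429), and the early arrays of 2 and 5 days lay far apart. Leaving out 1 array moved the POTLX-3 value to between 0.35 and 0.96, lowest without either 5-day array (0.40 and 0.35), and the LOX-H1 value to between -1.07 and -0.15, nearest to 0 without either 2-day array (-0.15 and -0.27) and farthest without either 5-day array (-0.996 and -1.07).

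With the 5 times as groups sharing a spread, limma on the same within-array differences called all 6 in vitro pairs, with adjusted p from 5.47e-06 for HPL minus CYP74D2 to 0.0149 for LOX-H1 minus CYP74D2. The calls thus differ with the test. How often other gene pairs would be called, or would not overlap, was not measured. Late minus early 48.5% of single spots and 67.9% of gene means were called. Of the 6 in vitro differences POTLX-3 minus HPL was the widest, and that between both CYP74 genes the next.

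**Figure D4:**
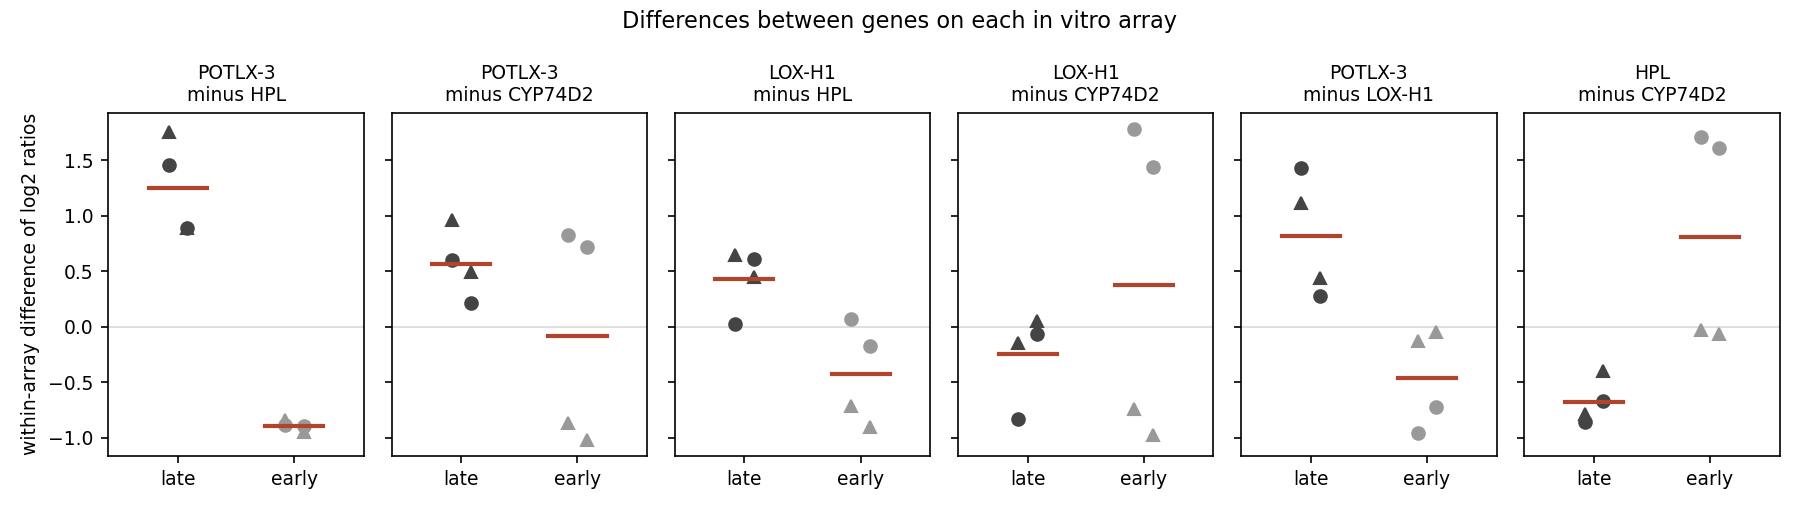
Difference between 2 gene means on each in vitro array (vertical axis, log2) for late (dark) and early (grey) microtubers, with circles for 20 or 2 days, triangles for 30 or 5 days and bars for group means. POTLX-3 minus HPL, POTLX-3 minus LOX-H1 and HPL minus CYP74D2 do not overlap between late and early arrays, while both differences from CYP74D2 for the lipoxygenases span a wide early range, with 2-day and 5-day arrays apart.

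On the plant, CYP74D2 was the member with nearly complete values. Copy 1 stood, in replicates 1 and 2, at -1.22 and -3.62 in stolons, 1.01 and -0.52 in 1-5 mm tubers, 0.39 and 0.03 at 6-10 mm, 1.01 and 1.36 at 11-15 mm, 1.70 and 1.79 at 16-25 mm, and 3.14 and 2.18 at 26-35 mm. Copy 2 stood at -4.90 in replicate 2 stolons, with no value in replicate 1, at 0.21 and -0.60 in 1-5 mm tubers, -0.22 and 0.25 at 6-10 mm, 1.40 and 1.25 at 11-15 mm, 1.74 and 1.84 at 16-25 mm, and 3.50 and 1.94 at 26-35 mm. Stolons were lowest and the largest tubers highest on both copies. The replicates of the 1-5 and 6-10 mm classes overlapped, and from 11-15 mm upward each class lay above the one before it. Both copies at 26-35 mm in replicate 1 lay above the 2.58 that an equal pool of 6 classes allows.

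The second comparison set tubers of all sizes against stolons. CYP74D2 was higher in tubers by 3.63 ± 0.61 on copy 1 (limma adjusted p = 0.00536) and by 6.03 ± 0.57 on copy 2 (adjusted p = 0.00111), the second against a single stolon value. These were 2 of 3 member spots tested, against 22.3% of all spots. Every tuber array lay above every stolon array on both copies. The size of the difference rests on the stolons of replicate 2: without that array copy 1 differed by 2.43 and did not pass (adjusted p = 0.0759), and copy 2 could not be tested. HPL clone A copy 2 differed by 0.28 ± 0.48 (adjusted p = 0.718). In this comparison 10 of 17 storage marker spots rose with CYP74D2, KTI-C by 7.24 to 8.48 on its 5 tested spots, and 4 of 13 green shoot marker spots fell; their part in the result was not tested.

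By class, CYP74D2 copy 2 passed against its single stolon value of -4.90, from replicate 2, at every size; the spread in these tests comes from the other classes, and a lone value is taken to vary as they do. It differed by 4.71 at 1-5 mm, 4.92 at 6-10 mm, 6.22 at 11-15 mm, 6.69 at 16-25 mm and 7.62 at 26-35 mm. Copy 1 differed by 2.67 at 1-5 mm (limma adjusted p = 0.0794) and 2.63 at 6-10 mm (adjusted p = 0.0767), and with the replicate as a block it passed at both (adjusted p = 0.0204 and 0.0202, in fits that called 22.7% and 24% of all spots). Replicate deviations of stolons and tuber classes correlated between -0.468 and -0.375, so a shared block does not describe these contrasts. Without the block copy 1 passed at 11-15 mm with 3.60, at 16-25 mm with 4.16 and at 26-35 mm with 5.08. Called member spots thus numbered 1 of 3 at 1-5 mm (7.35% of all spots), 1 of 3 at 6-10 mm (8.8%), and 2 of 3 at 11-15 mm (13.6%), 16-25 mm (10.8%) and 26-35 mm (13.1%). Leaving out replicate 2 of the stolons ended the calls of copy 1 at 11-15 mm (2.40) and 16-25 mm (2.96), as did leaving out either array of the class itself (3.43 to 3.78 and 4.12 to 4.20), and the call at 26-35 mm was lost without replicate 1 of that class (4.60). For copy 2 the calls at 1-5 mm (4.30) and 6-10 mm (5.15) were lost without replicate 1 of the class. These comparisons share the stolon arrays.

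The third comparison, large tubers of 16-25 and 26-35 mm against small ones of 1-5 and 6-10 mm, leaves out the amplified stolon RNA. CYP74D2 was higher in large tubers by 1.97 ± 0.56 on copy 1 and 2.34 ± 0.38 on copy 2, 3.93-fold and 5.07-fold, with no overlap between the classes on either copy. Neither passed in limma over all spots (adjusted p = 0.365 and 0.138), where 0 of 10415 spots passed and 757 had an unadjusted p under 0.05, so the members' count of 0 of 3 stands against 0%. The replicate number marks the set of plants and the dye of the sample, and with it as a block copy 2 passed (adjusted p = 0.0313) and copy 1 did not (adjusted p = 0.0900), in a fit that called 1.31% of all spots. Fitted over the tuber arrays only, with the block, both copies passed, with 1.97 ± 0.28 (adjusted p = 0.00260) and 2.34 ± 0.29 (adjusted p = 0.00133), against 19.6% of all spots. The change was 1.72 and 2.62 within replicate 1 and 2.23 and 2.06 within replicate 2.

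HPL showed no called change on the plant. As the mean of its measured spots it stood at 0.15 and -0.52 in stolons, 0.19 and -0.15 at 1-5 mm, -0.40 and 0.45 at 6-10 mm, 0.03 and 1.37 at 11-15 mm, 0.57 and 0.76 at 16-25 mm, and 0.02 and 1.32 at 26-35 mm. Replicate 2 lay above replicate 1 in each class from 6-10 mm upward, by up to 1.34 at 11-15 mm, and the classes overlapped. The gene mean differed by 0.60 ± 0.46 between tubers and stolons (adjusted p = 0.394 among 367 genes, of which 17.2% were called) and by 0.64 ± 0.42 between large and small tubers (adjusted p = 0.948, where 0% of genes were called). Fitted over the tuber arrays only, with the replicate block, HPL clone A copy 2 was higher in large tubers by 0.66 ± 0.24. It did not pass there (limma adjusted p = 0.0939), in a fit that called 19.6% of all spots. The copies of HPL clone A lay 3.67 apart on the 1-5 mm array of replicate 1 (2.81 on copy 1, above the pool's bound, and -0.86 on copy 2), and the HPL mean of that array rests on both.

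POTLX-3 was read on 9 in vivo arrays. It stood at -0.27 and 0.14 in stolons, at 0.30 in replicate 2 of 1-5 mm, at 0.19 and -0.01 at 6-10 mm, at 1.54 in replicate 1 of 11-15 mm, at 0.92 and -0.20 at 16-25 mm, and at 0.57 in replicate 1 of 26-35 mm. The replicate 2 values lay between -0.20 and 0.30, and those of replicate 1 in tubers between 0.19 and 1.54. Both replicates were measured in stolons and at 6-10 and 16-25 mm, where replicate 1 was the higher in the tuber classes and the lower in stolons. With so few values no class of POTLX-3 was tested over all spots.

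**Figure D5:**
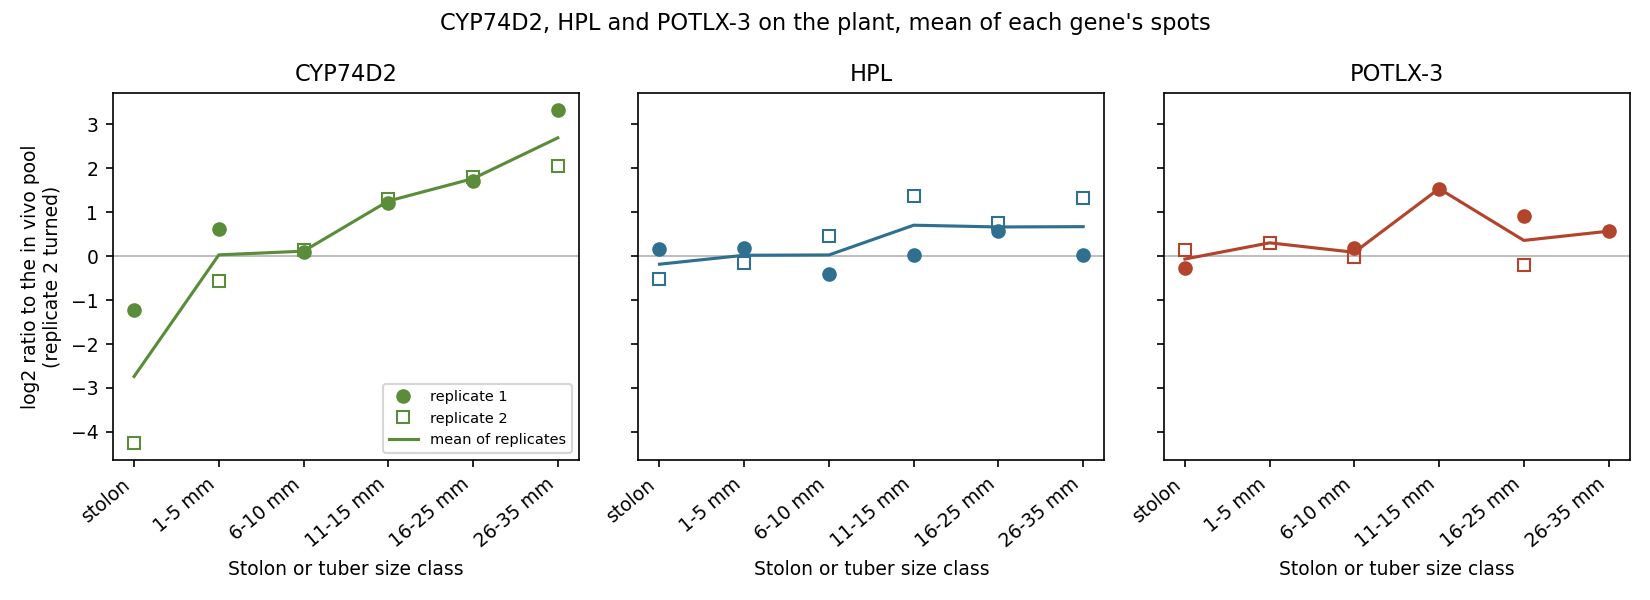
Log2 ratio to the in vivo pool (vertical axis, in the direction used here) for stolons and the 5 tuber size classes (horizontal axis), each point the mean of a gene's measured spots on 1 array and each line the mean of the arrays measured. CYP74D2 runs from the stolons, its lowest class, to the 26-35 mm tubers, its highest, while HPL and POTLX-3 stay within 1.54 of the pool and their replicates overlap between classes.

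Set against each other on the plant, CYP74D2 stood apart from the other 2 genes measured there. HPL minus CYP74D2 changed by -3.31 between tubers and stolons (exact permutation p = 0.0152, adjusted p = 0.0571) and by -1.51 between large and small tubers (exact permutation p = 0.0286, adjusted p = 0.0571), without overlap in either. POTLX-3 minus CYP74D2 changed by -3.30 over 7 tuber and 2 stolon arrays (exact permutation p = 0.0278, adjusted p = 0.0571). It was -5.03 without replicate 1 of the stolons and -1.58 without replicate 2, and HPL minus CYP74D2 was -2.12 without replicate 2 of the stolons. For large minus small tubers HPL minus CYP74D2 was -0.93 without replicate 1 of 26-35 mm. Between large and small tubers POTLX-3 minus CYP74D2 changed by -2.13 over 3 and 3 arrays, where 0.1 is the smallest exact permutation p that can be had. POTLX-3 minus HPL changed by 0.17 and -0.21 in these comparisons, with overlap in both, and its sign turned when single arrays were left out. With limma the tuber against stolon difference of HPL minus CYP74D2 passed (adjusted p = 0.0177). Its difference between large and small tubers did not pass in limma (adjusted p = 0.727, and 0.152 with the replicate block).

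Whether culture age and tuber size went with the same change was tested as late minus early in vitro less large minus small in vivo. Of 5 member spots tested 1 passed, CYP74D2 copy 2 with -1.62 ± 0.41 (limma adjusted p = 0.0455), against 4.06% of all spots. It rose by 0.73 in culture and differed by 2.34 on the plant. Copy 1 had -1.25 ± 0.61 (adjusted p = 0.268). If the in vivo direction is turned, the differences are 3.07 and 2.70 (adjusted p = 4.96e-04 and 0.0128), and 3 spots pass. Turning the in vitro ratios instead also gives CYP74D2 changes of opposite sign in the 2 systems. The call of copy 2 was lost in 14 of 21 fits that each left out 1 array, with differences of -2.01 to -1.23 over all 21. POTLX-3 copy 2 had 1.00 ± 0.36 (adjusted p = 0.157) and passed with the replicate as a block (1.33, adjusted p = 0.0238, in a fit that called 15.6% of all spots). HPL had -1.18 on clone A copy 2 (adjusted p = 0.228) and -2.09 on clone B copy 2 (adjusted p = 0.0932). The systems have separate pools, so a level of 0 does not mean the same amount in both.

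Across the 10 in vitro arrays, POTLX-3 and HPL ran opposite (Pearson r = -0.69, Spearman rho = -0.65), while POTLX-3 and CYP74D2 had r = 0.56 and rho = 0.03. For HPL and CYP74D2 r was 0.17 and rho 0.67, and over the 12 in vivo arrays 0.56 and 0.60. LOX-H1 had r between -0.22 and 0.01 and rho between -0.53 and -0.10 with the other 3 genes. These are descriptions over arrays that share times, populations and pools.

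Among 168 genes with a readable symbol and a value on every in vitro array, the genes closest to POTLX-3 were plc3 (r = 0.997, rho = 1), dnaJ (r = 0.99) and GPI (r = 0.97). Closest to HPL were dpeP (r = 0.96), glgP (r = 0.92) and KST1 (r = 0.92), and closest to CYP74D2 were GAL83 (r = 0.95), UDPGP (r = 0.93) and pglcat8 (r = 0.89). For GAL83, UDPGP and pglcat8 the ranks followed less closely, with rho of 0.71, 0.83 and 0.36. For LOX-H1, whose clones disagree, the closest were BRP1 (r = 0.73), PAIN-1 (r = 0.59) and gln (r = 0.54). Over the 12 in vivo arrays and 143 genes, CYP74D2 ran closest to GBSS-II (r = 0.96), ADH1 (r = 0.95) and API (r = 0.93), and HPL to PEST2 (r = 0.91), AdoMetDC (r = 0.87) and HXKRP1 (r = 0.87).

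Other genes of the pathway were sought by symbol. Of 25 symbols for oxylipin synthesis and release, among them allene oxide synthase and cyclase, oxophytodienoate reductases and other lipoxygenases, 0 matched a spot with 1 gene. Symbols were matched exactly, so variants of a name could be missed. The list held ADH, while ADH1, named above beside CYP74D2, has 2 spots on the array. The 4 genes above are thus the steps followed here, and the array may hold others. Of 22 symbols for jasmonate and wound responsive genes 6 matched, with 36 spots. In vitro, 18 of these spots were tested late minus early: 3 were higher, all of the polyphenol oxidase PPO, and 11 were lower, 6 of the proteinase inhibitor PIN-II and 5 of the leucine aminopeptidase LAP. Their median change was -0.37, against 0.02 over all spots tested, of which 48.5% were called. PIN-II spots changed by -2.57 to 0.17, LAP spots by -0.41 to -0.30 and PPO spots by 0.32 to 0.49.

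On the plant 23 spots of that list were tested between tubers and stolons, of which 10 were higher and 1 was lower, with a median of 1.66 against 0.08 over all spots. Among all spots tested the called share was 22.3%. The listed spots that were higher were 5 of 5 tested spots of KTI-C, 3 of 6 of PIN-II and 2 of 2 of API, protease inhibitors that the marker list of storage organs also holds. The 1 spot that was lower belonged to LAP, and none of the 4 PPO spots passed, with changes of 1.53 to 1.69. Between large and small tubers 0 of 23 passed in limma, against 0% of all spots.

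Markers of dividing cells changed in culture beside the members. The 4 spots of CYCD3.2 and CYCD3.3, both D-type cyclins, changed by -1.06 to -0.60 late minus early and all passed as lower. In that comparison 48.5% of all spots tested were called. Among green shoot markers 8 of 9 tested spots of PSBR were higher late and 5 of 5 of OEE2 were lower, so that list did not move one way. The part of such cells in the changes of POTLX-3, HPL and CYP74D2 was not tested.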

How the data were processed

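The authors deposited log2 ratios per spot for 22 two-colour arrays, and the submitters' processing notes name limma without a version. For background correction, normalization, spot filtering and which of sample and pool is on top of the ratio, the step is not given in the sources used here. Deposited values were used as they stand, with replicate 2 of the in vivo arrays multiplied by -1. The number of arrays limits the precision. Spots were named through the platform annotation, in which 1630 spots have 1 gene, 180 several and 30638 none, and 430 of 430 genes matched the SolTub_3.0 gene table.

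A spot entered a fit if at least 80% of its arrays, and 1 or more in each group, held a value, and was fitted by least squares, moderated with limma 3.58.1 in R 4.3.3, separately for the in vitro and in vivo arrays, and over all 22 arrays for the difference between systems. Missing values were left out spot by spot and none was imputed. P-values were adjusted by Benjamini-Hochberg over every spot of a fit, with calls under 0.05, and changes carry the standard error of the fit. Gene means average a gene's measured spots on an array. The procedure was tested on simulated data.

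Every spot of the 4 genes was named, with 2 lists of pathway genes and 3 lists of tissue markers by symbol, and the 3 other genes closest to each gene by Pearson correlation in each system. Genes, lists and comparisons were chosen with earlier results of these data known. The contrast of 30 with 5 days and the tests between clones were added after the values were seen. Alternatives were median centring, quantile normalization, array weights, other limits on missing values, the replicate block, leaving out each array, turning the in vivo direction, and limma for the gene pairs.

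In vivo replicate numbers pair the samples, because the labels tie each number to a set of plants raised apart in time. Deviations from class means correlated between 0.846 and 0.933 in the 10 pairs of tuber classes, and between -0.468 and -0.375 in the 5 pairs with stolons, so a block shared with stolons does not describe them. P-values for the in vitro arrays rest on 2 populations per time.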

Additional observations from a re-analysis of the deposited data

Results flagged for a closer look

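With both directions as used here, CYP74D2 clone A copy 2 changed less with age in culture than with tuber size on the plant. The difference was -1.62 ± 0.41 in the limma test of the difference itself (adjusted p = 0.0455). That call was lost in 14 of 21 fits that each left out 1 array. With the replicate block the limma adjusted p was 0.0164, in a fit that called 15.6% of all spots. In culture the late minus early change was 0.71 and 0.74 in replicates 1 and 2, and on the plant the large minus small change was 2.62 and 2.06, so both replicates show the direction. Copy 1 of the same clone had -1.25 (adjusted p = 0.268). With the in vivo direction turned the difference of copy 2 was 3.07 (adjusted p = 4.96e-04), and with gene means in place of spots the difference of CYP74D2 was -1.43 ± 0.70 (adjusted p = 0.249). With 1 dye order throughout, either system would be turned. The changes of copy 2 in culture and on the plant would then have opposite signs.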

How the results depend on the processing

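The 58 called changes of single spots had 767 alternatives, of which 690 kept direction and call, 76 kept direction without the call and 1 reversed. Median centring, array weights and a looser limit on missing values lost no call in the comparisons they were run on. With a value required on every array, fewer spots were tested, and the member counts were 6 (late minus early), 5 (20 minus 2 days), 5 (30 minus 5 days), 1 (tubers minus stolon), 0 (1-5 and 6-10 mm minus stolon) and 1 (11-15, 16-25 and 26-35 mm minus stolon). With the replicate block the counts were 1 for large minus small tubers, 2 for 1-5 and 6-10 mm minus stolon and 2 for the difference between systems, and for large minus small tubers 2 when the stolon arrays were left out as well. A block shared with stolons does not describe them, which limits the blocked counts against stolons. In vitro 4 of 10 pairs of times correlated over 0.1, so the numbers are not shown to pair the samples, and the block moved the counts to 5 at 5 days, 10 at 20 days and 8 at 30 days against 2 days, where HPL clone B copy 1 gained the call at 5 (0.66) and 20 days (-0.46) and LOX-H1 clone B copy 1 lost it at 30 days (0.76). The count for the difference between systems was 3 with the in vivo direction turned and 0 with gene means.

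Among the gene pairs limma called 6 in vitro and 1 for tubers minus stolon, the same with the replicate block, and the exact permutation test called 4 in vitro when it used spots with a value on every array, where the adjustment ran over those 6 pairs only. On those spots LOX-H1 minus HPL was 1.40 and LOX-H1 minus CYP74D2 -0.27. The share called among other gene pairs was not measured. Reversed values were -0.0125 for LOX-H1 clone D copy 1 (30 minus 5 days, centred) and 0.00217 for LOX-H1 clone C copy 1 (5 minus 2 days, replicate block), and with the in vivo direction turned 0.015 for HPL clone B copy 2 and 2.70 and 3.07 for CYP74D2 in the difference between systems. The CYP74D2 values passed the threshold and the others did not.

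Leaving out each array in turn, the member counts ranged from 8 to 12 late minus early, 2 to 4 at 5 days, 4 to 6 at 10 days, 6 to 11 at 20 days and 5 to 9 at 30 days against 2 days, 4 to 8 for 30 minus 5 days, 0 to 2 for tubers, 1-5, 6-10, 11-15 and 16-25 mm minus stolon and for the difference between systems, and 1 to 2 for 26-35 mm minus stolon. Changes that passed in none of those fits and took both signs were those of LOX-H1 clone B copy 1 (-0.11 to 0.20) and clone C copy 2 (-0.14 to 0.23) at 5 minus 2 days, LOX-H1 clone D copy 1 at 30 minus 5 days (-0.16 to 0.16), HPL clone B copy 2 at 10 minus 2 days (-0.026 to 0.61), HPL clone A copy 2 minus stolon at 1-5 mm (-0.78 to 0.20), 6-10 mm (-0.31 to 0.62) and 26-35 mm (-0.11 to 0.41), and POTLX-3 minus HPL for tubers minus stolon (-0.37 to 0.71) and for large minus small tubers (-0.54 to 0.26). LOX-H1 clone A copy 2 and clone C copy 1, with values on 8 arrays, could be refitted only without the 2 arrays they lack. The 2 arrays per stage, and the few in vivo values of POTLX-3 and LOX-H1, limit what could be tested.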
